A study of Mus musculus with 8 samples.

Results

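The 78 genes described here encode proteins of the mitochondrial ribosome. They are the protein-coding genes of the GENCODE M21 annotation whose symbol begins with Mrpl (49 genes, named for the large subunit) or Mrps (29 genes, named for the small subunit) followed by a number, out of 141239 features in the deposited tables. RNA was sequenced from whole hearts of 2-week-old mice of mixed strain, all of them Lmna knockout (Lmna-/-). In 3 libraries, replicates 6 to 8, the labels name no treatment, and these are called untreated. In the other 5, replicates 1 to 5 labelled Lmna-/-:AAV9 Lmna WT, the knockout mice carried AAV9, an adeno-associated virus vector that reaches heart muscle, with wild-type Lmna. The comparison asks which transcripts differ between knockout hearts with and without that vector.

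The mitochondrial ribosome translates the few messenger RNAs of mitochondrial DNA, which all encode subunits of the respiratory chain and ATP synthase. Its ribosomal RNAs come from mitochondrial DNA, while all of its proteins are encoded in the nucleus, made in the cytosol and imported. The large subunit joins amino acids and the small subunit decodes the message. Many of its proteins have a counterpart in the bacterial ribosome and others are found only in mitochondria. Heart muscle is rich in mitochondria, and inherited defects of several of these proteins, Mrpl44 among them, cause cardiomyopathy.

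Neither wild-type hearts nor hearts with an empty vector were analysed here. What Lmna does and what the virus does therefore cannot be told apart, and no change can be placed relative to a normal heart. Counts on features ran from 21439956 to 26492443 per library. The libraries differed in more than the group: reads outside every feature were 16.75 to 24.69% in untreated and 12.05 to 12.85% in AAV9 libraries, and the share of counts on NONCODE noncoding features was 2.886 to 4.108% against 2.072 to 2.269%. Untreated replicate 6 was highest in both. Lmna itself was at 46.4, 68.7 and 32.3 CPM, its count scaled to the size of the library, in the untreated libraries and at 227 to 747 CPM in the AAV9 libraries, with a log2 fold change of 3.03 (SE 0.46, edgeR adjusted p = 0.00486). The residual counts mean that Lmna transcript was not at 0 in the knockout libraries, and the groups did not overlap.

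Transcripts of the mitochondrial ribosome were higher in AAV9 than in untreated libraries across both subunits. Of the 78 genes, 74 had enough counts to be tested, and 57 of these were called higher (edgeR's quasi-likelihood test, Benjamini-Hochberg adjusted p under 0.05 over 26717 features), 0 lower, and 17 were not called. At an unadjusted p under 0.05, 61 were higher and 1, Mrpl48, lower; DESeq2 called 60 higher and 1 lower, and limma-voom 56 and 0. The median log2 fold change over the 74 was 0.50, a 1.41-fold difference, and 70 of 74 values were above 0. The called genes lay between 1.24-fold and 3.57-fold, the upper end being Mrpl54, which had only 63 counts over the 8 libraries. For the reading of these counts, 10.6% of all features tested were called higher and 15% lower, and of the 13785 coding genes tested 18.4% were called higher and 6.07% lower, with a median of 0.21. In bulk tissue, more cells of a type and more RNA per cell cannot be told apart.

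The size of that difference depends on how the libraries are scaled. When Ensembl features were scaled and tested without the NONCODE features, the median log2 fold change of coding genes went from 0.21 to 0.02. Of the 74 genes, 22 were then called higher (4.49% of coding genes) and 0 lower, and their median was 0.31. When each library was in addition adjusted for transcript length and GC content, 8 of 74 were called higher (2.74% of coding genes) and 1 lower (6.43% of coding genes), with a median of 0.24. All 8 were among the 57. A comparison of the 5 AAV9 libraries with untreated replicate 7 alone, which leaves out untreated replicates 6 and 8 and takes the lone library to vary like the others, called 18 higher (7.42% of coding genes), 17 of them among the 57.

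The 8 genes called higher under the length and GC adjustment were Mrpl38, Mrpl42, Mrpl44, Mrpl49, Mrpl51, Mrpl57, Mrps7 and Mrps16. Of these, 6 were called in all 4 fits: Mrpl38, Mrpl42, Mrpl44, Mrpl49, Mrpl51 and Mrps7. The promoters of 3 of them and of Mrps27 are shown because they hold the same word shortly after the start site, AAGATGGC, the core of the motif bound by YY1, a factor known to act at ribosomal and mitochondrial gene promoters. The promoter of Mrpl51 is shown with the other kind of word that was frequent, CCGGAAG, bound by ETS factors such as GABPA (NRF2). Each is 300 bases from RefSeq on GRCm38.p6, 250 before and 50 after the start site, written 5′ to 3′ on the gene's strand, with the matching words on either strand in capitals.
Mrpl42 promoter, chr10:95501900-95502199, minus strand: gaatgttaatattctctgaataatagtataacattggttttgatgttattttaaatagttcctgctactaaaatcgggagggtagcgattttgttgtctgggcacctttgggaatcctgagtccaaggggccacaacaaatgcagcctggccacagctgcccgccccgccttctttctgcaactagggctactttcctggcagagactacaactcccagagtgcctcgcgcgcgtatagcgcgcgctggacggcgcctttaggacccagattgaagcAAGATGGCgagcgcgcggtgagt
Mrpl49 promoter, chr19:6057706-6058005, minus strand: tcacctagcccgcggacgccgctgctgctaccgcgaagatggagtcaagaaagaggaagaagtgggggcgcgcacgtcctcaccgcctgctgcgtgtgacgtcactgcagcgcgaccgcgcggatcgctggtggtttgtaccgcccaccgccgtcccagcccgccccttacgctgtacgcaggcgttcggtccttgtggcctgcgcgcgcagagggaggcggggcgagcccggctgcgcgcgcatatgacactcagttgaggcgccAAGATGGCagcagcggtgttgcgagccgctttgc
Mrps7 promoter, chr11:115603890-115604189, plus strand: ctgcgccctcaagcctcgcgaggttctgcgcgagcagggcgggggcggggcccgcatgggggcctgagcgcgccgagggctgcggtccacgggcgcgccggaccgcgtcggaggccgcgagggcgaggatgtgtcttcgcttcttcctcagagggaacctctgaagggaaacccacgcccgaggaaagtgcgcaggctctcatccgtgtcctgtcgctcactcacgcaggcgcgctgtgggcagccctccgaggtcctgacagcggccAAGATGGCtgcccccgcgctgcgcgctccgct
Mrps27 promoter, chr13:99344536-99344835, plus strand: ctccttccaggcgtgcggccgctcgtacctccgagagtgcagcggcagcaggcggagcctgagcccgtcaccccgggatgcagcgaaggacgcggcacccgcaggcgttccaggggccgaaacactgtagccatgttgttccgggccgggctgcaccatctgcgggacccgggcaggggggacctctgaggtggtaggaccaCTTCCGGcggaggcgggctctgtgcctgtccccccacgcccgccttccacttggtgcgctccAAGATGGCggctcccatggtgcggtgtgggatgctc
Mrpl51 promoter, chr6:125191950-125192249, plus strand: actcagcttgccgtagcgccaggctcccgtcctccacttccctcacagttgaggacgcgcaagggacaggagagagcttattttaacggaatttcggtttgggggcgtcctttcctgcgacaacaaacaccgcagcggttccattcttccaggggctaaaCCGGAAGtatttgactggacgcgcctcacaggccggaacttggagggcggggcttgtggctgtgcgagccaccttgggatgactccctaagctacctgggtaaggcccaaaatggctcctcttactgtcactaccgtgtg

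RefSeq promoter windows were at hand for 69 of the 78 genes. AAGATGGC was present in 12 of them (17.4%), on either strand, against 4.79% of 10686 other tested coding genes and 3.19% of all 27025 genes in the table. In 8 of the 12 it lay on the gene's own strand with its first base 12 to 37 bases after the start, as in the windows of Mrpl42, Mrpl49, Mrps7 and Mrps27. CCGGAAG was present in 26 windows (37.7%), against 18.5% of other tested coding genes and 9.93% of all genes. The core word of NRF1, CGCATGCG, another factor known for nuclear genes of mitochondria, was present in 7 (10.1%), against 4.01% and 2.07%. No window of these genes held overlapping words of different kinds. Such a match describes letters in the window and no binding.

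The fold changes of genes with and without these words overlapped. Of the 12 with AAGATGGC, 11 were called higher (18.4% of coding genes were), with a median log2 fold change of 0.64. Of the 53 tested genes whose window lacked it 39 were called, with a median of 0.48. Under the length and GC adjustment the medians were 0.33 and 0.22. For CCGGAAG the medians were 0.49 with it (22 genes, 14 called) and 0.48 without it (43 genes, 36 called), and 0.23 and 0.24 under the adjustment. For CGCATGCG the medians were 0.55 with it (7 genes, 6 called) and 0.48 without it (58 genes, 44 called), and 0.31 and 0.23 under the adjustment. These are descriptions over genes, which are not replicates.

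Mrpl42, a mitochondria-specific protein of the large subunit, had the most transcript per kilobase of the whole group, 177 CPM per kb averaged over the libraries, against a median of 22.8. The length used was 661 nt, the median of its coding transcripts, while its exons together cover 3682 nt. That rank depends on which length is used. Its gene lies on chromosome 10 from 95480805 to 95501940. It was at 72.9, 99.6 and 83.5 CPM in the untreated libraries and at 129, 138, 133, 144 and 136 CPM in the AAV9 libraries. Every AAV9 library was above every untreated one, and the log2 fold change was 0.67 (SE 0.11, edgeR adjusted p = 0.0037) and 0.37 (SE 0.08, adjusted p = 0.0191) with the length and GC adjustment.

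Mrpl44, a large subunit protein with a fold like ribonuclease III, lies on chromosome 1 from 79776018 to 79781445. It was at 27.9, 35.9 and 30.9 CPM in untreated and at 46.6, 48.5, 48.5, 48.9 and 49.7 CPM in AAV9 libraries. The AAV9 values were nearly equal to each other and all above the untreated ones, with a log2 fold change of 0.62 (SE 0.10, edgeR adjusted p = 0.0039) and 0.33 (adjusted p = 0.0298) with the adjustment. Part of an exon overlaps Wdfy1 on the opposite strand, and since reads were counted without strand, reads there cannot be assigned to either gene.

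Mrpl51, a mitochondria-specific protein of the large subunit on chromosome 6 (125191801 to 125196269), was at 66.1, 72.7 and 70.1 CPM in untreated and at 98.5, 95.1, 101, 103 and 113 CPM in AAV9 libraries. The untreated libraries varied little for this gene and did not overlap the others. Its log2 fold change was 0.56 (SE 0.09, edgeR adjusted p = 0.00381), and 0.40 (adjusted p = 0.027) with the adjustment. An exon of Mrpl51 overlaps the microRNA gene Mir3098. Mrpl49, another mitochondria-specific protein of that subunit, on chromosome 19 (6053622 to 6057785), was at 23.3, 30.9 and 29.3 CPM against 38.7, 44.8, 46.2, 42.9 and 48.8 CPM. It too showed no overlap, with a log2 fold change of 0.67 (SE 0.12, edgeR adjusted p = 0.00498), and 0.39 (adjusted p = 0.0331) with the adjustment. An exon of Mrpl49 overlaps Syvn1.

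In the small subunit, Mrps7 and Mrps16 were called under the length and GC adjustment. Mrps7, counterpart of the bacterial protein that organises the head of the small subunit, lies on chromosome 11 (115603925 to 115608036) and was at 39.9, 49.3 and 45.4 CPM in untreated and at 65.7, 65.3, 76.6, 69.4 and 63.2 CPM in AAV9 libraries. Its log2 fold change was 0.60 (SE 0.10, edgeR adjusted p = 0.00452), and 0.34 (adjusted p = 0.0354) with the adjustment, and its exons overlap Gga3 and Mif4gd. Both groups were tight for Mrps7 and stood clear of each other. Mrps16, on chromosome 14 (20389304 to 20393634), was at 15.8, 25.1 and 21.8 CPM against 30.5, 32.6, 32.1, 32.5 and 35.5 CPM, with a log2 fold change of 0.64 (SE 0.14, edgeR adjusted p = 0.0107), and 0.46 (adjusted p = 0.0317) with the adjustment. With untreated replicate 7 alone, its highest untreated library, Mrps16 was at 0.39 and was no longer called (adjusted p = 0.0827).

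**Figure D1:**
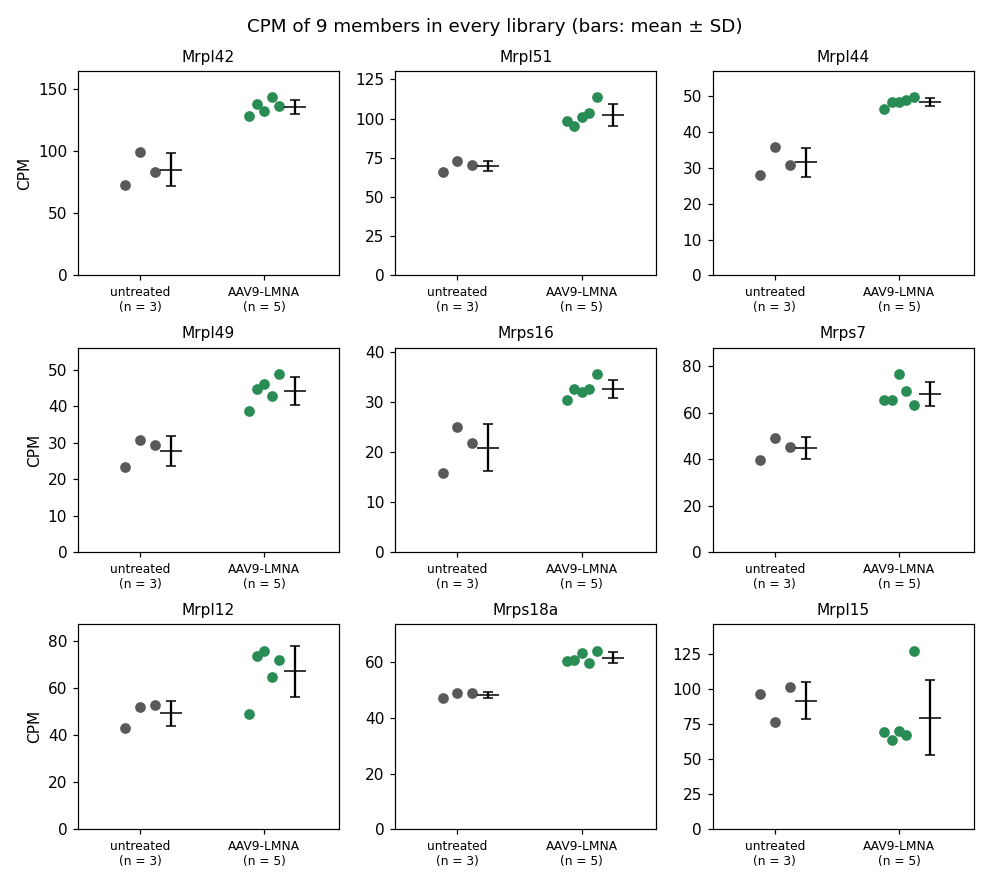
CPM (vertical axis, from 0) of 9 mitochondrial ribosomal protein genes in 3 untreated (grey) and 5 AAV9-LMNA (green) libraries, each point 1 library, bars the mean ± SD. In 7 panels, Mrpl42 to Mrps7 and Mrps18a, the groups do not overlap; for Mrpl12 AAV9 replicate 1 (49.1 CPM) lies among the untreated values, and for Mrpl15 AAV9 replicate 5 (127 CPM) stands above all others.

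Among called genes whose groups did not overlap and whose mean log2 CPM reached 1, the largest folds were those of Mrpl55, Mrpl22, Mrpl36, Mrpl28 and Mrpl42 in the large subunit and Mrps27, Mrps18b, Mrps16, Mrps15 and Mrps7 in the small one. Mrpl55, specific to mitochondria, was at 23.5, 39.3 and 32.4 CPM in untreated and at 46.0, 56.0, 55.7, 51.7 and 69.9 CPM in AAV9 libraries, a log2 fold change of 0.82 (SE 0.17, edgeR adjusted p = 0.00958). Mrpl22, whose bacterial counterpart lines the exit tunnel of the new protein, was at 4.42 ± 1.01 CPM (SD, n = 3) against 7.42 ± 0.326 CPM (SD, n = 5), a log2 fold change of 0.75 (edgeR adjusted p = 0.0143). Neither was called with the length and GC adjustment, where the values were 0.48 and 0.43.

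Mrpl36, the counterpart of a small bacterial protein of the large subunit, was at 10.6, 20.7 and 13.3 CPM against 21.3, 24.8, 27.6, 26.4 and 24.2 CPM (log2 fold change 0.74, edgeR adjusted p = 0.0199). Untreated replicate 7 nearly reached the lowest AAV9 library, and the gene was not called against that library alone (0.27, adjusted p = 0.295). It overlaps an exon of Ndufs6. Mrpl28 was at 56.3 ± 10.6 CPM (SD, n = 3) against 90.4 ± 7.67 CPM (SD, n = 5), a log2 fold change of 0.68 (edgeR adjusted p = 0.00592), and 0.35 (adjusted p = 0.0571) with the adjustment.

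Mrps27, which carries pentatricopeptide repeats of the kind that bind RNA, was at 12.5, 13.4 and 14.3 CPM in untreated and at 17.1, 24.0, 24.1, 26.8 and 19.1 CPM in AAV9 libraries. Here the AAV9 libraries were the more variable group, and the log2 fold change of 0.73 (SE 0.16, edgeR adjusted p = 0.00961) became 0.44 (adjusted p = 0.0966) with the adjustment. Mrps15, which binds the ribosomal RNA of the small subunit, was at 33.2 ± 3.94 CPM (SD, n = 3) against 51.1 ± 2.37 CPM (SD, n = 5), with log2 fold changes of 0.62 (edgeR adjusted p = 0.00381) and 0.29 (adjusted p = 0.0598).

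The 3 genes named Mrps18 are relatives of a single bacterial protein and are known to occupy different places in the ribosome. Mrps18a, which sits in the large subunit despite its name, was at 47.1, 49.0 and 48.9 CPM against 60.5, 60.9, 63.3, 59.7 and 64.1 CPM, among the tightest values of the group. Its log2 fold change was 0.35 (SE 0.08, edgeR adjusted p = 0.0129), close to the median of 0.32 of coding genes of like length, and -0.01 (adjusted p = 0.94) with the length and GC adjustment. Mrps18b, like Mrps18a, has diverged from the bacterial protein and is counted here among genes without a bacterial counterpart, while Mrps18c is counted as the counterpart. Mrps18b was at 8.12 ± 1.97 CPM (SD, n = 3) against 12.9 ± 0.529 CPM (SD, n = 5), a log2 fold change of 0.66 (edgeR adjusted p = 0.0158) that became 0.32 (adjusted p = 0.215) with the adjustment. Its exons share 638 bases with Gm16279 on the opposite strand, so its counts are uncertain. Mrps18c had 7 counts over all 8 libraries and was not tested.

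Mrps30, also a large subunit protein despite its name, was at 10.9 ± 2.28 CPM (SD, n = 3) against 15.1 ± 1.01 CPM (SD, n = 5), with a log2 fold change of 0.48 (edgeR adjusted p = 0.0392). That call was lost on leaving out any library other than untreated replicate 7. Mrps36, known as a component of the 2-oxoglutarate dehydrogenase complex rather than of the ribosome, was not called (0.41, edgeR adjusted p = 0.134). Mrpl12, which besides its place on the ribosome is known to associate with the mitochondrial RNA polymerase, was at 43.2, 51.9 and 52.7 CPM against 49.1, 73.8, 75.7, 64.7 and 72.1 CPM. AAV9 replicate 1 lay among the untreated values, and the log2 fold change of 0.45 (SE 0.14, edgeR adjusted p = 0.042) became 0.13 (adjusted p = 0.557) with the adjustment. That call was also lost on leaving out untreated replicate 6 or 8 or any of AAV9 replicates 2 to 5. Exons of Mrpl12 overlap Gm16755 on the opposite strand.

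After Mrpl42, transcript per kilobase of median coding transcript length was highest for Mrpl4 in the large subunit, at 93.2 CPM per kb. In the small one by symbol it was highest for Mrps18a and Mrps17, at 75.3 and 64.2 CPM per kb. For Mrps17 the length used was 851 nt, while its exons together cover 6490 nt. Mrpl4, whose bacterial counterpart lines the exit tunnel, was at 53.0, 61.3 and 64.0 CPM against 78.5, 81.5, 86.2, 87.8 and 95.1 CPM (log2 fold change 0.53, edgeR adjusted p = 0.00602). Mrps17 was at 43.4 ± 4.5 CPM (SD, n = 3) against 61.4 ± 3.55 CPM (SD, n = 5), a log2 fold change of 0.50 (edgeR adjusted p = 0.00708). Both kept separate groups, and with the length and GC adjustment they were at 0.17 and 0.18 and were not called.

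At the low end stood Mrpl48, Mrpl15 and Mrpl34. Mrpl48, a mitochondria-specific protein of the large subunit, was at 3.53, 2.47 and 3.09 CPM in untreated and at 2.48, 1.82, 1.28, 1.85 and 2.08 CPM in AAV9 libraries, with a log2 fold change of -0.67 (SE 0.25, edgeR adjusted p = 0.0659). It was the single gene called lower under the length and GC adjustment (-1.01, edgeR adjusted p = 0.0439). Part of its exonic sequence overlaps Rab6a on the opposite strand, and 429 counts over the 8 libraries support it.

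Mrpl15, the counterpart of a protein of the bacterial large subunit, was at 96.5, 76.5 and 101 CPM in untreated and at 69.3, 63.4, 70.2, 66.7 and 127 CPM in AAV9 libraries. In 4 AAV9 libraries it was below every untreated one and in the other, replicate 5, above them all, with a log2 fold change of -0.21 (SE 0.22, edgeR adjusted p = 0.508). Without that library the value was -0.45 and was called lower. Mrpl34 had 70 counts over the 8 libraries and a log2 fold change of -0.12 (SE 0.50).

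Of the other 14 genes that were not called, the log2 fold changes lay from -0.04 for Mrpl33 to 0.49 for Mrps22. They included Mrpl3 (0.21), Mrpl41 (0.14) and Mrps35 (0.20), whose untreated means were 53.0, 43.7 and 51.4 CPM.

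**Figure D2:**
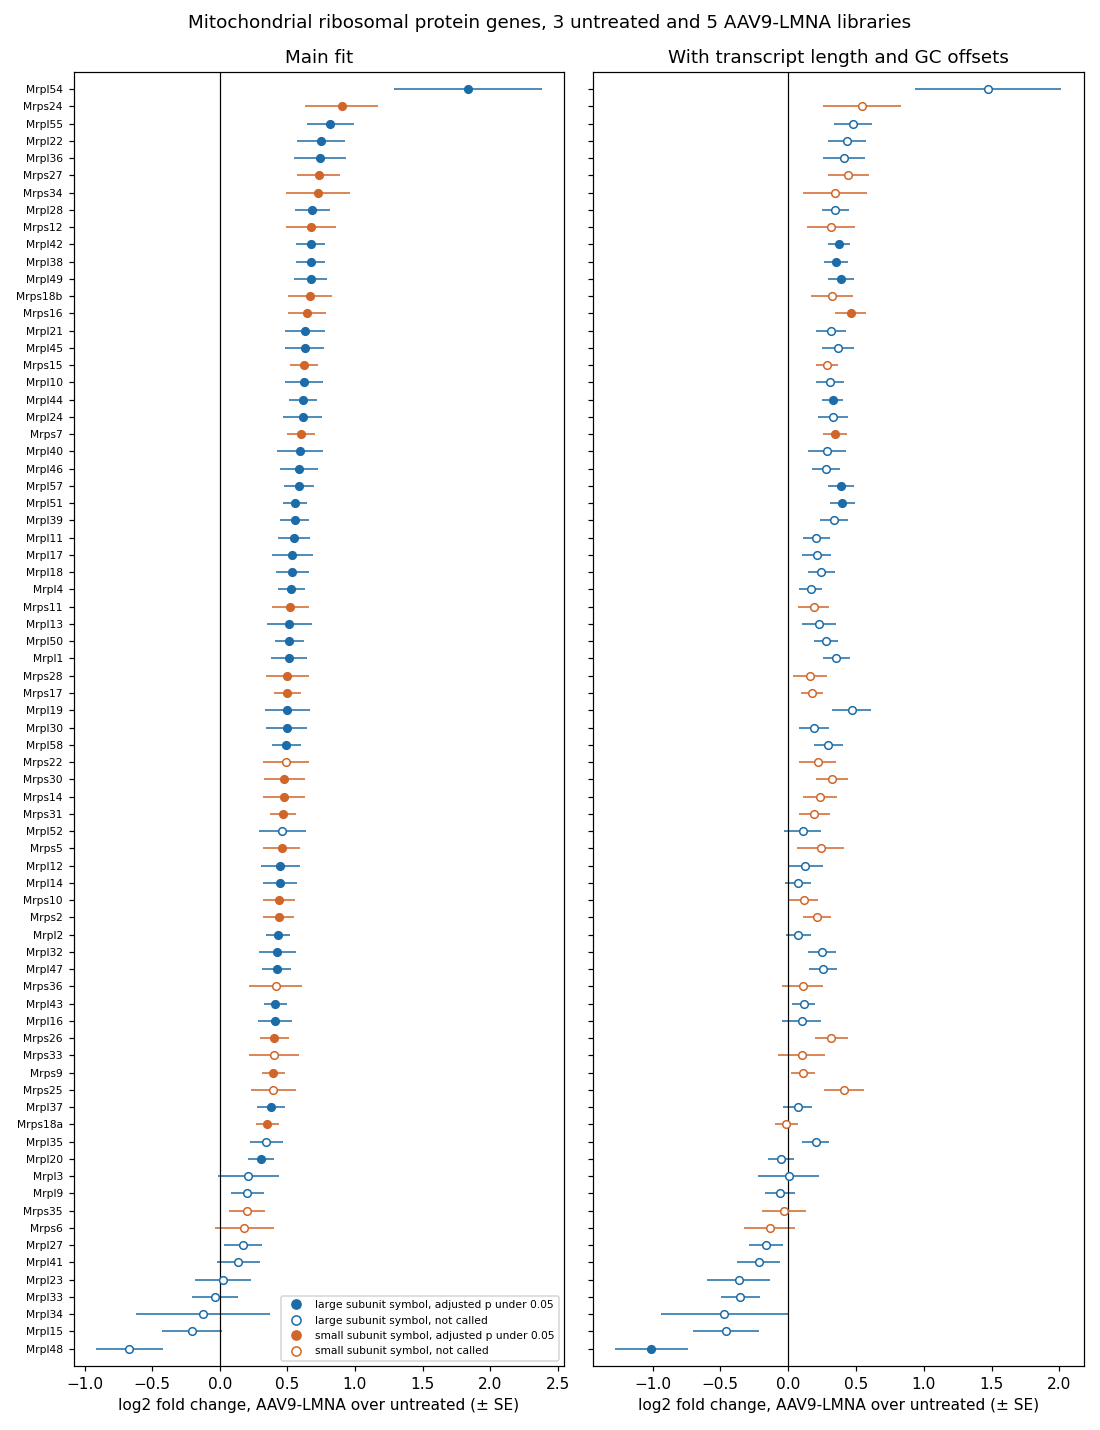
Log2 fold change (AAV9-LMNA over untreated, horizontal axis, bars ± SE) of the 74 tested genes, ordered by the main fit, blue for Mrpl and orange for Mrps symbols, filled where the adjusted p is under 0.05. On the left 57 are called higher and most lie near the median of 0.50; on the right, after length and GC adjustment, the median is 0.24, 8 are called higher and Mrpl48 is called lower.

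Both subunits had nearly the same values. In the large subunit 37 of 48 tested genes were called higher with a median log2 fold change of 0.51. In the small subunit 20 of 26 were, with a median of 0.48, where 18.4% of coding genes were called higher. The difference of the medians was 0.03. Measured in each library as the median log2 level of the large minus the small subunit genes, relative to the untreated mean, it was -0.07, 0.04 and 0.03 in untreated and -0.01, 0.01, -0.03, 0.09 and 0.09 in AAV9 libraries, so the groups overlapped. Moving Mrps18a and Mrps30 to the large subunit and leaving out Mrps36 gave medians of 0.50 (39 of 50 called) and 0.49 (18 of 23).

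Genes with a counterpart in the bacterial ribosome and those without one had medians close to each other. Of 42 with a counterpart 33 were called higher, with a median of 0.48. Of 32 without one 24 were, with a median of 0.51, where 18.4% of coding genes were called higher. With the length and GC adjustment, 2 of 42 (4.76%) and 6 of 32 (18.75%) were called higher, with medians of 0.21 and 0.31. The share of coding genes called higher was then 2.74%. The second class had the longer transcripts, 1338.5 against 1032.5 nt at the median.

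Across libraries, the genes were shifted together. Relative to the mean of the untreated libraries, the median log2 level of the 74 was -0.18, 0.18 and 0.04 in untreated replicates 6, 7 and 8, and 0.41, 0.51, 0.50, 0.51 and 0.60 in AAV9 replicates 1 to 5. Coding genes as a whole moved the same way in this main scaling, at -0.11, 0.08 and 0.04 in untreated and 0.20 to 0.25 in AAV9 libraries. With length and GC offsets the 74 were at -0.02, 0.06 and -0.01 in untreated and 0.17 to 0.31 in AAV9 libraries. In the main scaling, untreated replicate 6 held the lowest value of 54 of the 74 genes and AAV9 replicate 5 the highest of 37. The coefficient of variation between libraries had a median of 16.8% in untreated and 8.0% in AAV9 libraries. For 53 of 74 genes every AAV9 library was above every untreated one in the main scaling, which was so for 23.1% of coding genes tested.

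**Figure D3:**
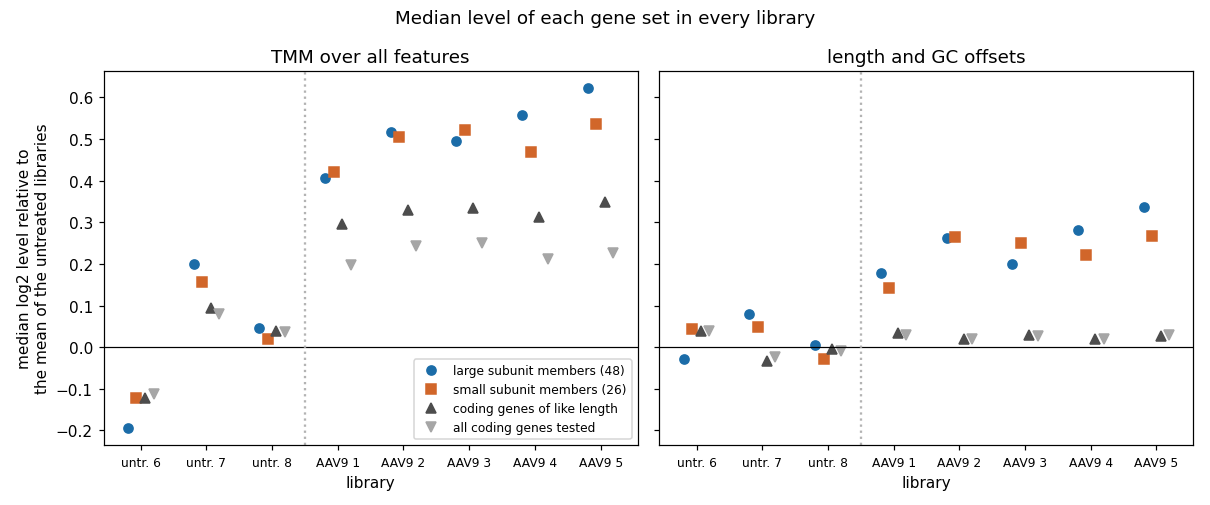
Median log2 level in each library relative to the mean of the untreated libraries (vertical axis), for 48 large and 26 small subunit genes, coding genes of like length and all coding genes, with the main scaling (left) and with length and GC offsets (right). The 5 AAV9 libraries lie above the 3 untreated ones for both subunits in either panel, while all coding genes lie above 0 in the AAV9 libraries on the left and near 0 on the right.

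Transcript length bears on the comparison, since shorter coding genes had higher fold changes in these libraries. Over the 13785 coding genes the Spearman correlation of log2 fold change with length was -0.27, across genes that share the same 8 libraries, and 0.01 after the adjustment. The 74 genes were short, with a median of 1148 nt (418 to 6073 nt) against 2245 nt for all coding genes, and their GC content was similar, 50.3% against 51.0%. Among themselves their fold changes followed length little in the main fit (-0.05), and after the adjustment the longer ones had the higher values (0.32).

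Each gene was therefore set against the other coding genes within 10% of its length, 98 to 1635 genes, a median of 836. The mitochondrial ribosomal protein genes exceeded the median of these by 0.23 on the log2 scale at the median, and 62 of 74 lay above it. It was also 0.23 with Ensembl features alone and with length and GC offsets, which follows from its construction, since a change of scaling or of length offset moves both sides alike. Against untreated replicate 7 alone it was 0.16. It was 0.24 in the large and 0.20 in the small subunit. In single libraries the excess was -0.05, 0.10 and 0.00 in untreated and 0.14, 0.25, 0.19, 0.24 and 0.27 in AAV9 libraries, with AAV9 replicate 1 only slightly above untreated replicate 7.

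In 4 classes of length, from 418 to 756.25, to 1148, to 1945 and to 6073 nt, 11 of 19, 16 of 18, 15 of 18 and 15 of 19 of the genes were called higher. Other coding genes in those ranges were called higher in 25.1%, 28.9%, 22.1% and 14.5%. The medians were 0.44 against 0.31 in the shortest class, 0.56 against 0.33 and 0.48 against 0.29 in the middle ones, and 0.48 against 0.16 in the longest. Under the adjustment, 1, 0, 3 and 4 were called higher by edgeR from the shortest to the longest class and 1 lower, Mrpl48, in the second. Of other coding genes 10 of 1126, 23 of 1603, 68 of 2999 and 237 of 7147 were then called higher.

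**Figure D4:**
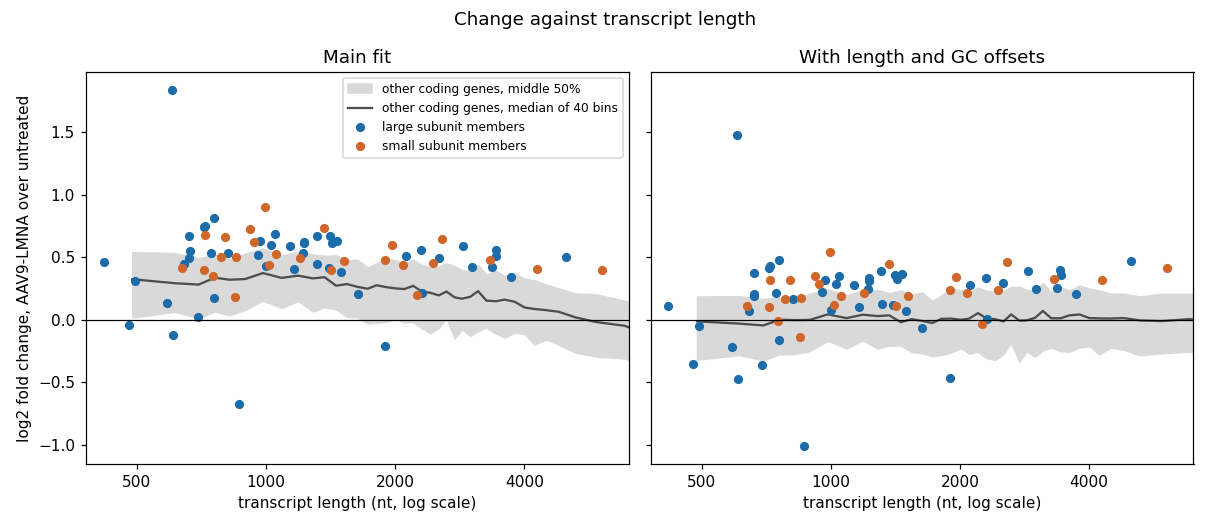
Log2 fold change (vertical axis) against transcript length (horizontal axis, log scale) for the large (blue) and small (orange) subunit genes, over the median (line) and middle 50% (grey band) of other coding genes in 40 length bins, in the main fit (left) and with length and GC offsets (right). The grey line falls with length on the left and is flat on the right, and most of the coloured points, 62 and 61 of 74, lie above the median of genes of like length.

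A similar pattern was seen in other nuclear genes of mitochondria. Of 37 genes picked by the Nduf symbols given to complex I subunits, 30 were called higher with a median of 0.51. The symbols also took in Ndufa4 and Ndufa4l2, whose place in complex I a symbol does not settle. With Ensembl features alone 13 of the 37 were called higher with a median of 0.32, against 22 of 74 and 0.31 for the mitochondrial ribosome. Against untreated replicate 7 alone the medians were 0.40 and 0.39. With the length and GC adjustment 0 of the 37 were called by edgeR (11 higher at an unadjusted p under 0.05), with a median of 0.16. The mitochondrial ribosome then had 8 of 74 called higher and a median of 0.24. Cytosolic ribosomal protein genes, which serve translation outside mitochondria, were called higher in 15 of 83 (18.1%, against 18.4% of coding genes), with a median of 0.38. DESeq2 called 26, and edgeR 1 against untreated replicate 7 alone. Under the adjustment edgeR called 0 of 83 (9 higher and 2 lower at an unadjusted p under 0.05), with a median of 0.08. Those genes have many near-identical copies in the genome, so their counts are uncertain. These values are set side by side and their differences from the mitochondrial ribosome were not tested.

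Of 5 genes for proteins of the mitochondrial ribosome under other names, 4 were tested: Dap3, Ptcd3, Aurkaip1 and Gadd45gip1. All 4 were called higher (18.4% of coding genes were), with a median of 0.58. Chchd1 had too few counts to be tested, at 0.128 ± 0.0366 CPM (SD, n = 3) against 0.0461 ± 0.0648 CPM (SD, n = 5). With Ensembl features alone and with the adjustment 1 of the 4, Ptcd3, stayed called. Ptcd3, a pentatricopeptide protein of the small subunit, was at 94.0 ± 20.3 CPM (SD, n = 3) against 157 ± 8.55 CPM (SD, n = 5), with log2 fold changes of 0.74 (SE 0.13, edgeR adjusted p = 0.0048) and 0.54 (adjusted p = 0.00987) with the adjustment. Dap3, a GTP-binding protein of the small subunit, was at 0.34 (edgeR adjusted p = 0.0283) and 0.01 (adjusted p = 0.978) with the adjustment.

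Factors that build or run the ribosome showed the same direction. For comparison, 18.4% of coding genes were called higher and 6.07% lower in the main fit, with a median of 0.21. With the length and GC adjustment 2.74% of coding genes were called higher. Of 25 assembly factors, 13 were called higher and 0 lower, with a median of 0.45, among them Mterf4 (0.65), which recruits an RNA methyltransferase to the large subunit, Ngrn (0.60) and Mettl17 (0.64). With the adjustment Nsun4, the methyltransferase that pairs with Mterf4, and Fastkd2 were called, at 0.56 and 0.35, both named after their values were seen. Of 15 tested translation factors 9 were called higher and 0 lower, with a median of 0.37. Lrpprc, which keeps mitochondrial messenger RNAs stable, was at 157 ± 22.7 CPM (SD, n = 3) against 252 ± 13.1 CPM (SD, n = 5), and the elongation factor Gfm1 at 185 ± 12.9 CPM (SD, n = 3) against 263 ± 14.7 CPM (SD, n = 5). These 2 stayed called with the adjustment, at 0.60 and 0.40, and the release factor Mtrf1 (0.76) was called in the main fit.

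Of 15 genes for transcription, replication and RNA processing in mitochondria, 8 were called higher and 0 lower (18.4% and 6.07% of coding genes). Their median was 0.29, against 0.21 for coding genes. DESeq2 called 10 and limma-voom 8. They included Tfam (0.65), which packages mitochondrial DNA and takes part in its transcription. Trmt10c (0.53) and Elac2 (0.44), which take part in freeing transfer RNAs from the primary transcript, were also among them. With the adjustment 0 of 15 were called by edgeR, and 5 were higher at an unadjusted p under 0.05. Against untreated replicate 7 alone 0 of 15 were called, and 9 were higher at an unadjusted p under 0.05.

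What the ribosome translates could be read only in part. Of 15 genes of mitochondrial DNA, 7 had 0 counts in every library, both ribosomal RNAs among them, and 6 were tested. The complex I transcripts mt-Nd4 and mt-Nd2 fell by 1.21 (edgeR adjusted p = 0.00221) and by 0.70 (adjusted p = 0.0196) on the log2 scale, and mt-Co1, a subunit of cytochrome oxidase, was higher by 0.35 (adjusted p = 0.0263). With Ensembl features alone and with length and GC offsets mt-Nd4 and mt-Nd2 stayed called, and mt-Co1 was at 0.16 (adjusted p = 0.376) and 0.11 (adjusted p = 0.614). Against untreated replicate 7 alone edgeR called 0 of the 6, with 1 higher and 1 lower at an unadjusted p under 0.05. Genes that every cell uses were at 0, so these counts are incomplete, and the reason was not tested.

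Markers of heart muscle were abundant in every library, and the labelled tissue is heart. Of 10 cardiomyocyte markers 4 were called higher (18.4% of coding genes were) and 1 was lower at an unadjusted p under 0.05. The calls higher were 1 with Ensembl features alone and 0 by edgeR with length and GC offsets (1 higher at an unadjusted p under 0.05). Their summed level was 55796 to 81345 CPM in untreated and 70091 to 82553 CPM in AAV9 libraries. No marker of fibroblasts (6), endothelium (5), smooth muscle (4), macrophages (5), erythroid cells (5) or skeletal muscle (2 tested) was called by edgeR, and of lymphocytes 1 of 2 tested was. At an unadjusted p under 0.05, 3 endothelial, 1 macrophage and 1 smooth muscle marker were higher, and 1 endothelial and 1 skeletal muscle marker lower. DESeq2 and limma-voom each called 2 of 5 macrophage markers higher, and DESeq2 1 of 4 of smooth muscle. Macrophage markers summed to 73.5 to 319 CPM in untreated and 275 to 327 CPM in AAV9 libraries, and fibroblast markers to 1423 to 5757 against 3849 to 5990 CPM, lowest in untreated replicate 6. Of 4 tested atrial markers 3 were called lower, with sums of 63.1 to 977 against 59.1 to 177 CPM, the highest in untreated replicate 8, and DESeq2 and limma-voom called 0 of 4 (0 at an unadjusted p under 0.05 in either). No marker was at 0 in all libraries, and the part of any of these in the result was not tested.

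The 4 genes not tested were Mrpl53, Mrps18c, Mrps21 and Mrps23, with 0, 7, 52 and 59 counts over the 8 libraries. Most of the exonic sequence of Mrpl53 overlaps Gm42688, and reads that fall on both are not counted for either. Mrpl54, with 63 counts over the 8 libraries, was called with the largest fold of all (log2 fold change 1.84, SE 0.55, edgeR adjusted p = 0.0317), and is named after its value was seen. Of the 78 genes, 33 share exonic sequence with another annotated gene, 23 with a coding one. The 43 tested genes without such overlap had 33 called higher (18.4% of coding genes were) and a median of 0.49, and the 31 with it 24 and 0.51.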

How the data were processed

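RNA from 8 heart libraries, 3 untreated and 5 AAV9-LMNA, was analysed. The authors deposited unnormalised read counts, made without strand over 53465 Ensembl and 87774 NONCODE features, per the deposited tables. The submitters' processing notes name, without versions or roles, TopHat2, HTSeq, limma and edgeR, and the builds GRCm38 and mm10. The 5 summary lines of each table stayed out of library sizes. Per the labels, a miRNeasy kit gave the total RNA and a TruSeq kit the libraries. The sources used here do not give batch, sex or vector dose.

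Counts were filtered with filterByExpr, scaled by TMM over all features and tested with edgeR 4.0.16 (R 4.3.3, robust quasi-likelihood fit, 1 group term), with Benjamini-Hochberg adjustment over 26717 features. CPM uses TMM library sizes. Log2 levels use a prior count of 2, except that those with length and GC offsets add 0.5 to each count. The standard error is the log2 fold change over the square root of F. Length is the median of a gene's coding transcripts in GENCODE M21. The adjustment for length and GC content gave edgeR offsets from loess curves (span 0.5) in each library, on Ensembl features. DESeq2 1.42.0, limma-voom (limma 3.58.1), RLE scaling, other filters and left-out libraries were alternatives. The scripts were tested on simulated data. The labels do not state that libraries come from separate animals, so p-values reflect the spread among libraries only, and that spread may be technical. No libraries of a group agreed within sampling noise.

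The genes, lists, motifs and tests were chosen with earlier results of these data known. Genes named in full were, by rule, called genes of largest fold (5 of each subunit), up to 6 called with the adjustment, the 3 lowest, the highest per kilobase (2 of each subunit), and Mrps18a, Mrps18b, Mrps18c, Mrps30, Mrps36 and Mrpl12, and from each list up to 3 called genes of smallest p. Mrpl38, Mrpl57 and the uncalled genes beyond the 3 lowest were named after their values were seen. Overlaps with NONCODE features were not checked, for want of their coordinates.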

Additional observations from a re-analysis of the deposited data

Results flagged for a closer look

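Of 27 results checked for a library far from the others of the AAV9 group, 1 stood out. Mrpl15 was at 126.8 CPM in AAV9-LMNA replicate 5, against 63.4 to 70.2 CPM in the other 4, a gap of 0.891 of the whole range where 0.71 is the 95% critical value of Dixon's test. Chance gives a value above 0.71 in about 1 of 20 sets, and 27 were checked.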

How the results depend on the processing

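No paired analysis was possible because the replicate numbers 6 to 8 and 1 to 5 are not shared between the groups. Against 57 genes called higher and 0 lower over all features, Ensembl features alone gave 22 (17 large, 5 small subunit; median 0.31; 1967 features called in all, against 6858), length and GC offsets 8 and 1 lower (6 large, 2 small; median 0.24; 1381 features), and leaving out untreated replicates 6 and 8 together 18 (11 large, 7 small; 2143 features). The last also gave a large minus small difference of -0.053, an excess over genes of like length of 0.16 and a Lmna value of 2.56 that was no longer called. DESeq2 and the filter of 1 CPM in 3 libraries each called 1 gene lower, Mrpl48. Leaving out each library in turn gave 36 to 60 genes higher (24 to 38 large, 11 to 22 small), 0 to 1 lower, a median of 0.42 to 0.62, an excess over like length of 0.18 to 0.30 and 4216 to 10033 features. The 36 came without AAV9 replicate 2 and 37 without untreated replicate 8; without untreated replicate 7 the excess was 0.30. Signs turned for Mrpl15 (0.063 without untreated replicates 6 and 8), Mrpl34 (-0.43 to 0.19 with single libraries left out, above 0 without AAV9 replicate 4 or untreated replicate 7) and Mrps18a (-0.013 with offsets). The causes were not tested. RLE scaling and no filter left the call and sign of all 22 named genes tested as they were. Of the 18 of these that were called, 12 were no longer called under the offsets, and 10 without untreated replicates 6 and 8. Genes under 100 counts in all, Mrpl34 and Mrpl54, are limited by depth.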

Other observations

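Several mitochondrial ribosomal protein genes start head to head with a neighbour on the opposite strand. With annotated starts at most 500 nt apart or overlapping by at most 300 nt, 22 of the 78 had such a coding neighbour, and in 20 pairs both genes were tested. Of the 20 neighbours 6 were called higher by edgeR and 0 lower (0 at an unadjusted p under 0.05; DESeq2 and limma-voom also called 0 lower), with a median log2 fold change of 0.33, where 18.4% of coding genes were called higher and 6.07% lower. The calls were fewer with other scalings, 2 neighbours with Ensembl features alone and 1 with length and GC offsets. The 6 were Klc4 beside Mrpl2 (0.39 and 0.43), Mitd1 beside Mrpl30 (0.71 and 0.49), Psma2, a proteasome subunit, beside Mrpl32 (0.36 and 0.43), Ndufs6, a complex I subunit, beside Mrpl36 (0.39 and 0.74), Cyb5rl beside Mrpl37 (1.01 and 0.38) and Apba3 beside Mrpl54 (0.53 and 1.84). They were named after their values were seen. Mrps7 (0.60) faces Gga3 (-0.09, edgeR adjusted p = 0.541), and Mrpl51 (0.56) faces Ncapd2 (0.19, adjusted p = 0.324). Overlapping starts counted without strand leave reads there unassigned, so these pairs are values only.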
